A study of Mus musculus with 9 samples.

Results

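The mitosis and spindle genes are 40 mouse genes whose products carry a cell from G2 through mitosis to division. They were taken as a list of symbols, with no rule on measured values. Earlier results of these data were known when they were chosen. Of the 40 genes, 39 were measured here among 18193 genes in all, each by the probe set with the highest mean over the 9 arrays. No probe set was named for the cyclin gene Ccnb1 here, so its level is not reported. The measured genes cover cyclins and Cdk1, Polo-like and Aurora kinases, the chromosomal passenger complex, the spindle assembly checkpoint, kinetochores, kinesins, spindle microtubule-binding proteins, the anaphase-promoting complex, mitotic chromosomes and cytokinesis.

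The study measured RNA from cultures of LSK cells, the lineage-negative, Sca-1-positive, c-Kit-positive bone marrow fraction that holds hematopoietic stem and early progenitor cells, sorted from wild-type C57/Bl6 mice. The cells spent 3 days on OP9 stroma, a mouse bone marrow stromal line that serves as a feeder, after which the non-adherent cells were harvested. The OP9-DL1+CompoundE group was kept on stroma that presents the Notch ligand Delta-like 1, and Compound E was present at 1 µM; it inhibits γ-secretase, the protease that frees the active part of a Notch receptor. The OP9-DL1 group had the ligand-presenting stroma alone, and the OP9-GFP group had control stroma. All 3 groups share the starting cells, the time and an OP9 feeder, the feeder differing between OP9-GFP and the other groups, and each has 3 arrays. The labels give neither an inhibitor-treated OP9-GFP group nor a vehicle, so an action of Compound E unrelated to Delta-like 1 cannot be told apart from its action on Notch in these comparisons. Nothing in the labels says that the 3 arrays of a group came from separate animals or cultures, so each p-value reflects only how far these samples vary, which may be technical.

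Each array gave 1 log2 value for each of 45101 probe sets, and 25 ng of RNA had been amplified before labelling. All 39 genes were above background on every array: their values ran from 6.30 to 12.20, whereas the 27 bacterial control probe sets, taken as background, ran from 2.24 to 3.64. By their mean over the arrays, all 39 also lay above the median gene (6.41). The arrays of a group agreed closely for these genes, with a median SD of 0.07, and the median standard error of a difference was 0.06. None of the 9 arrays measured the LSK cells before culture, so a change from the starting profile cannot be read here. Kit, which marks the starting fraction, averaged 8.14, 10.22 and 8.94 in the OP9-DL1+CompoundE, OP9-DL1 and OP9-GFP groups, and Cd34 averaged 10.90, 11.00 and 11.35, while genes of several mature lineages were bright. No probe set was named here for Ly6a, which encodes Sca-1. The stromal genes Cxcl12 and Sparc were bright in all groups (12.08, 12.56 and 12.21 for Cxcl12 in the same order), whereas Lum, Dcn and Lepr were at background.

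Entry into mitosis is driven by Cdk1 bound to A- and B-type cyclins, which Cdc25 phosphatases activate and the Aurora and Polo-like kinases help to switch on. Kinetochores then attach chromosomes to spindle microtubules, the checkpoint holds anaphase until they are attached, and the anaphase-promoting complex with Cdc20 marks securin and cyclin B for destruction so that sisters can part and the cell can divide. These genes are transcribed mainly late in the cycle, so in a bulk sample their RNA is widely read as a measure of how many cells are dividing. Bone marrow progenitors divide often, and progenitors leave the cycle as they mature. Many G2/M promoters carry a cell cycle genes homology region (CHR), which binds the MuvB complexes that repress these genes in resting cells and activate them in G2, together with CCAAT boxes bound by NF-Y.

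The promoters shown here are those of the 6 genes with the largest differences between OP9-DL1 and OP9-GFP that had a promoter in the RefSeq table, followed by Pttg1 and Plk4 as examples of genes not called lower on OP9-DL1. Each run covers 150 bases before to 50 bases after the annotated start, 5′ to 3′ along the gene, from RefSeq GRCm38.p6. Capitals mark the CHR letters TTTGAA or TTCGAA and the CCAAT box on either strand, so that TTCAAA and ATTGG are the same motifs read from the other strand. The positions are chr15:99651607-99651806 (minus strand), chr9:61946750-61946949 (minus strand), chr3:135212413-135212612 (plus strand), chr2:172370521-172370720 (minus strand), chr4:117178723-117178922 (minus strand), chr7:122159285-122159484 (plus strand), chr11:43425932-43426131 (minus strand) and chr3:40799801-40800000 (plus strand).
Racgap1: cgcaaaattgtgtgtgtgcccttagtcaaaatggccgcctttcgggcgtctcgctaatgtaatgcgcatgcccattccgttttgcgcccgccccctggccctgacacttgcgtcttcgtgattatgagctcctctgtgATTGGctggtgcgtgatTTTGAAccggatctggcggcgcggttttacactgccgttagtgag
Kif23: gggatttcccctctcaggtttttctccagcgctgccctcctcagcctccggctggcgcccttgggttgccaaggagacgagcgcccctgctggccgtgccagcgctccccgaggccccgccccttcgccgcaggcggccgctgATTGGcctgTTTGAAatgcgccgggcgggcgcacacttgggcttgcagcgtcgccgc
Cenpe: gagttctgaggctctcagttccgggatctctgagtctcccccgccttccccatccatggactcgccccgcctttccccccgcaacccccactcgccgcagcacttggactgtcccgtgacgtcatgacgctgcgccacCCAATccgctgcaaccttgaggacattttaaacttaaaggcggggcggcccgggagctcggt
Aurka: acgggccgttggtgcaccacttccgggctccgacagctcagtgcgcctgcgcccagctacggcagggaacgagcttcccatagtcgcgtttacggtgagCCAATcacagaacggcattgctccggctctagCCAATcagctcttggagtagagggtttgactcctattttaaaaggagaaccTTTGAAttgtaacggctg
Kif2c: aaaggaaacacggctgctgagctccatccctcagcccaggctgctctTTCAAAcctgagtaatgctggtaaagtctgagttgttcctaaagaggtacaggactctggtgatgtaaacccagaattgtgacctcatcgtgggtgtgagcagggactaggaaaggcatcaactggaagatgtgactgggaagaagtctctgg
Plk1: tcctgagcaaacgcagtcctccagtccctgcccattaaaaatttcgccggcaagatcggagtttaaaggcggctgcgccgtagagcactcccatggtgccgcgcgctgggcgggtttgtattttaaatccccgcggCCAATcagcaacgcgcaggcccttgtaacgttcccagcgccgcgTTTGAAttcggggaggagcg
Pttg1: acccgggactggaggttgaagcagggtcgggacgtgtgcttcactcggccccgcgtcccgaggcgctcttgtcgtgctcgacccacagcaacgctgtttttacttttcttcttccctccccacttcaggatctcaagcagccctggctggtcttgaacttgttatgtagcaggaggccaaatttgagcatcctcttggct
Plk4: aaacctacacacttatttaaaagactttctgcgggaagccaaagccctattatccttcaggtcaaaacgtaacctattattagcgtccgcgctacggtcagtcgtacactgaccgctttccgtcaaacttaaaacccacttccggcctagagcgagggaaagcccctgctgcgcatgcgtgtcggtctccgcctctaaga

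A CHR and a CCAAT box stand close to the start in Racgap1, Kif23, Aurka and Plk1, Cenpe holds a CCAAT box without a CHR in this stretch, and Kif2c holds a CHR farther upstream on the other strand. Pttg1 and Plk4 hold neither motif. Bub3, Kif4, Cdc20 and Espl1 were not called lower on OP9-DL1 either, and each holds a CHR and a CCAAT box in the longer table window, while Birc5, Nuf2 and Nusap1 were called lower and hold neither. Over the whole table window of 250 bases before to 50 after the start, 34 of the 40 genes had a promoter (Ccna2, Cdc25c, Aurkb, Incenp, Tpx2 and Kif20a had none in the table). A gene counted as holding a motif when any of its windows did. TTTGAA was found in 24 of the 34 (70.6%), against 15.7% of the 14452 genes of the array with a promoter in the table. Within 50 bases of the start the shares were 64.7% and 4.09%. The variant TTCGAA, which reads the same on both strands, was found in 4 of the 34 (11.8%), against 2.23%. CCAAT was found in 25 (73.5%), against 42.0%, and at least 2 copies in 47.1%, against 14.9%. GGCGG, searched as a cell cycle dependent element, was found in 91.2%, against 72.7%, and GGCGGGAA, an E2F-type site that contains GGCGG, in 0 of the 34, against 3.76%. Neither CHR form and no CCAAT box was found in 6 genes, namely Birc5, Mad2l1, Nuf2, Nusap1, Plk4 and Pttg1. These are letter matches on both strands in a fixed window and say nothing of binding.

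**Figure D1:**
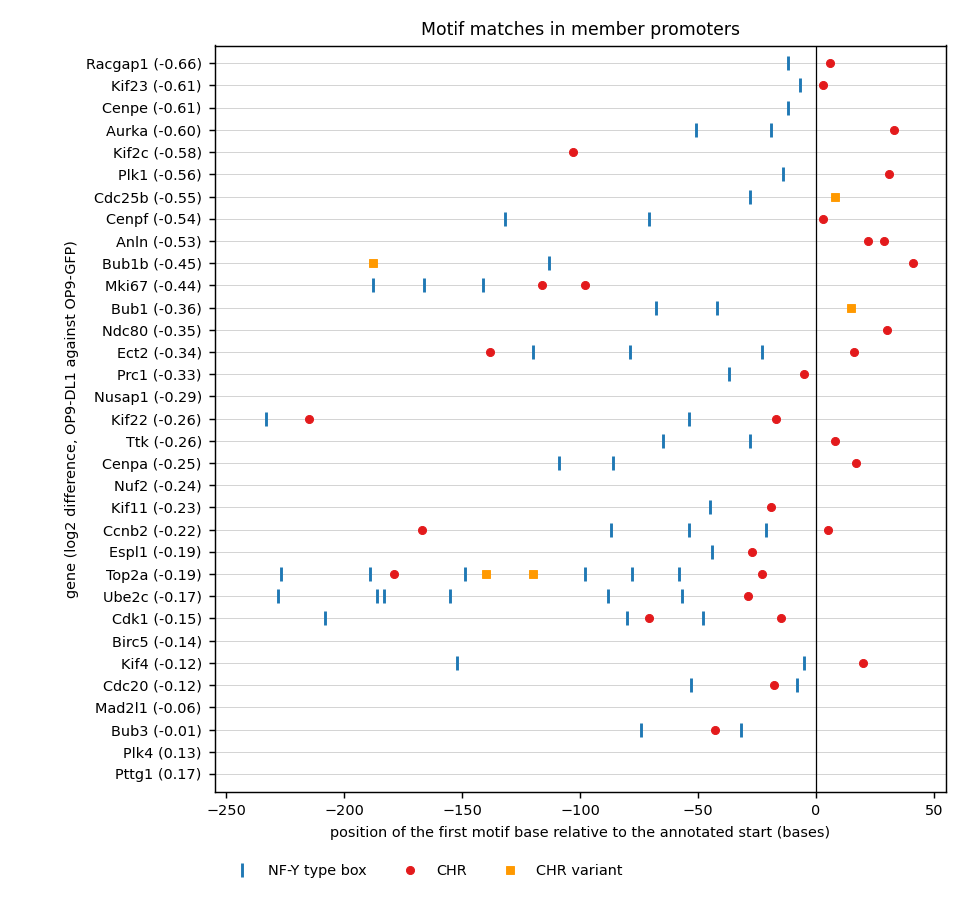
Positions of motif matches in the promoters of the 33 measured genes with a window, with distance from the annotated start in bases on the x axis and genes ordered by their log2 difference between OP9-DL1 and OP9-GFP, which stands in brackets. Circles mark the CHR, squares its variant and vertical bars the NF-Y type box, on either strand; most circles lie within 50 bases of the start.

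On OP9-DL1, most of these genes were lower than on OP9-GFP. With limma and a Benjamini-Hochberg adjusted p below 0.05, 31 of the 39 were lower and 1, the securin gene Pttg1, was higher. Among all 18193 genes 16.7% were lower and 15.9% higher by the same test, and among genes above the median brightness, where all 39 lie, 28.1% were lower and 22.1% higher. The genes not called were Plk4, Bub3, Mad2l1, Kif4, Tpx2, Cdc20 and Espl1. The median log2 difference over the 39 genes was -0.27, against -0.02 over all genes. The differences were small, from -0.66 for Racgap1 to 0.17 for Pttg1, and 4 genes (Racgap1, Kif23, Cenpe and Aurka) were lower by at least 1.5-fold and 0 higher, against 6.26% and 7.62% of all genes. With each array centred on its median the counts of 31 lower and 1 higher were the same, against 19.7% of all genes lower. All 3 OP9-DL1 arrays lay below all 3 OP9-GFP arrays for 34 of the 39 genes, against 23.0% of all genes, and above them for 1, against 20.8%.

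The mean over the 39 genes was 9.45, 9.47 and 9.47 on the OP9-DL1 arrays, and 9.77, 9.78 and 9.75 on the OP9-GFP arrays (log2). The groups do not overlap, and the mean over all genes above the median brightness ran from 9.13 to 9.16 on OP9-DL1 and from 9.17 to 9.18 on OP9-GFP. In bulk RNA, fewer dividing cells and less of each RNA per dividing cell cannot be told apart. In the same comparison, most lists of cell type markers had a larger median log2 difference than the 39 genes (-0.27). The medians were 1.67 for megakaryocyte and platelet genes, -2.08 for macrophage and monocyte genes and 0.68 for stromal genes. They were 1.14 for mast cell and basophil, 0.94 for erythroid, 1.15 for T cell and 0.65 for LSK genes. Neutrophil genes (-0.19) and B cell genes (0.03) moved less than the 39. All 12 measured megakaryocyte and platelet genes were higher on OP9-DL1, with a summed level (log2 of summed linear values) of 14.67 on each array, against 13.26 to 13.28 on OP9-GFP. All 11 macrophage and monocyte genes were lower, with a summed level of 13.58 to 13.65 on OP9-DL1, against 14.73 to 14.78 on OP9-GFP. Of 18 stromal genes 13 were higher and 0 lower, with sums of 14.72 to 14.73 on OP9-DL1, against 14.04 to 14.07 on OP9-GFP. Mast cell and basophil genes were higher for 7 of 9 (13.20 to 13.22 on OP9-DL1, against 12.20 to 12.27 on OP9-GFP) and erythroid genes for 6 of 10 (12.54 to 12.59, against 10.71 to 10.87), with Hba-a1 and Alas2 at background. T cell genes were higher for 7 of 10 and lower for 1 (sums of 8.87 to 9.02 on OP9-DL1, against 9.04 to 9.14 on OP9-GFP), and neutrophil genes higher for 4 and lower for 6 of 11. Genes of the LSK fraction were higher for 6 and lower for 4 of 10. The T cell genes Cd3e and Ptcra and the B cell genes Cd79a, Pax5 and Blnk were at background in every group. The part of these shifts in the lower mitotic genes was not tested.

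With Compound E on OP9-DL1, 16 of the 39 genes were higher than on OP9-DL1 alone, 4 were lower (Plk4, Incenp, Mad2l1 and Tpx2) and 19 were not called. Among all genes 25.1% were higher and 21.6% lower by the same limma test, and among the brighter genes 35.0% and 31.8%, while 41.0% of the 39 were higher. The median log2 difference was 0.15, against 0.08 over all genes and 0.02 over the brighter ones. Aurka, Kif23 and Kif20a were higher by at least 1.5-fold and 0 lower, against 9.58% and 9.85% of all genes. The groups did not overlap, with Compound E higher, for 20 genes, against 29.3% of all genes, and with Compound E lower for 4, against 23.2%. The counts depended on the scaling. Centring each array on its median moved the median of all genes up by 0.13, and 29 of the 39 genes were then higher and 2 lower, against 44.2% and 15.8% of all genes. Without OP9-DL1 replicate 1 or OP9-DL1+CompoundE replicate 2, 2 genes were lower in place of 4.

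The mean over the 39 genes was 9.65, 9.67 and 9.58 on the OP9-DL1+CompoundE arrays, each above the 9.45 to 9.47 of the OP9-DL1 arrays. Sums of several marker lists moved in this comparison too. Macrophage genes were higher for 11 of 11, with sums of 14.93 to 14.96 with Compound E, against 13.58 to 13.65 on OP9-DL1. Megakaryocyte genes were lower for 12 of 12, with 12.77 to 12.83 with Compound E, against 14.67 on OP9-DL1. Stromal genes were lower for 13 of 18 and higher for 2 (14.04 to 14.09 with Compound E, against 14.72 to 14.73 on OP9-DL1). Mast cell genes were lower for 8 of 9 and erythroid genes for 6 of 10. Genes of the LSK fraction were lower for 7 and higher for 2 of 10. Their part in the mitotic genes was not tested.

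Against OP9-GFP, the cultures with ligand and inhibitor together had 18 of the 39 genes lower and 0 higher by limma, and 21 were not called. Among all genes 10.6% were lower and 12.1% higher, and among the brighter ones 17.5% and 18.2%. At an unadjusted p below 0.05, 22 of the 39 genes passed, against 6312 of all 18193 genes. Of the 39, 0 were called with a difference of at least 1.5-fold, against 2.68% of all genes lower and 2.39% higher. The median log2 difference was -0.12, against 0.05 over all genes. Arrays of the groups did not overlap for 20 genes that were lower with Compound E, against 15.0% of all genes, and for 2 that were higher, against 19.8%. With each array centred on its median the counts were 9 lower and 3 higher, against 6.83% and 24.5% of all genes, with a median of -0.03 over the 39. Without OP9-DL1+CompoundE replicate 3, 2 genes were higher (Aurka and Kif20a). The mean over the 39 genes, 9.58 to 9.67 with Compound E, lay below the 9.75 to 9.78 of OP9-GFP and above the OP9-DL1 arrays. The 3 comparisons share arrays, each group standing in 2 of them, so their differences are given side by side and not correlated. In the same comparison megakaryocyte sums were 12.77 to 12.83 with Compound E, against 13.26 to 13.28 on OP9-GFP, macrophage sums 14.93 to 14.96, against 14.73 to 14.78, and stromal sums 14.04 to 14.09, against 14.04 to 14.07.

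**Figure D2:**
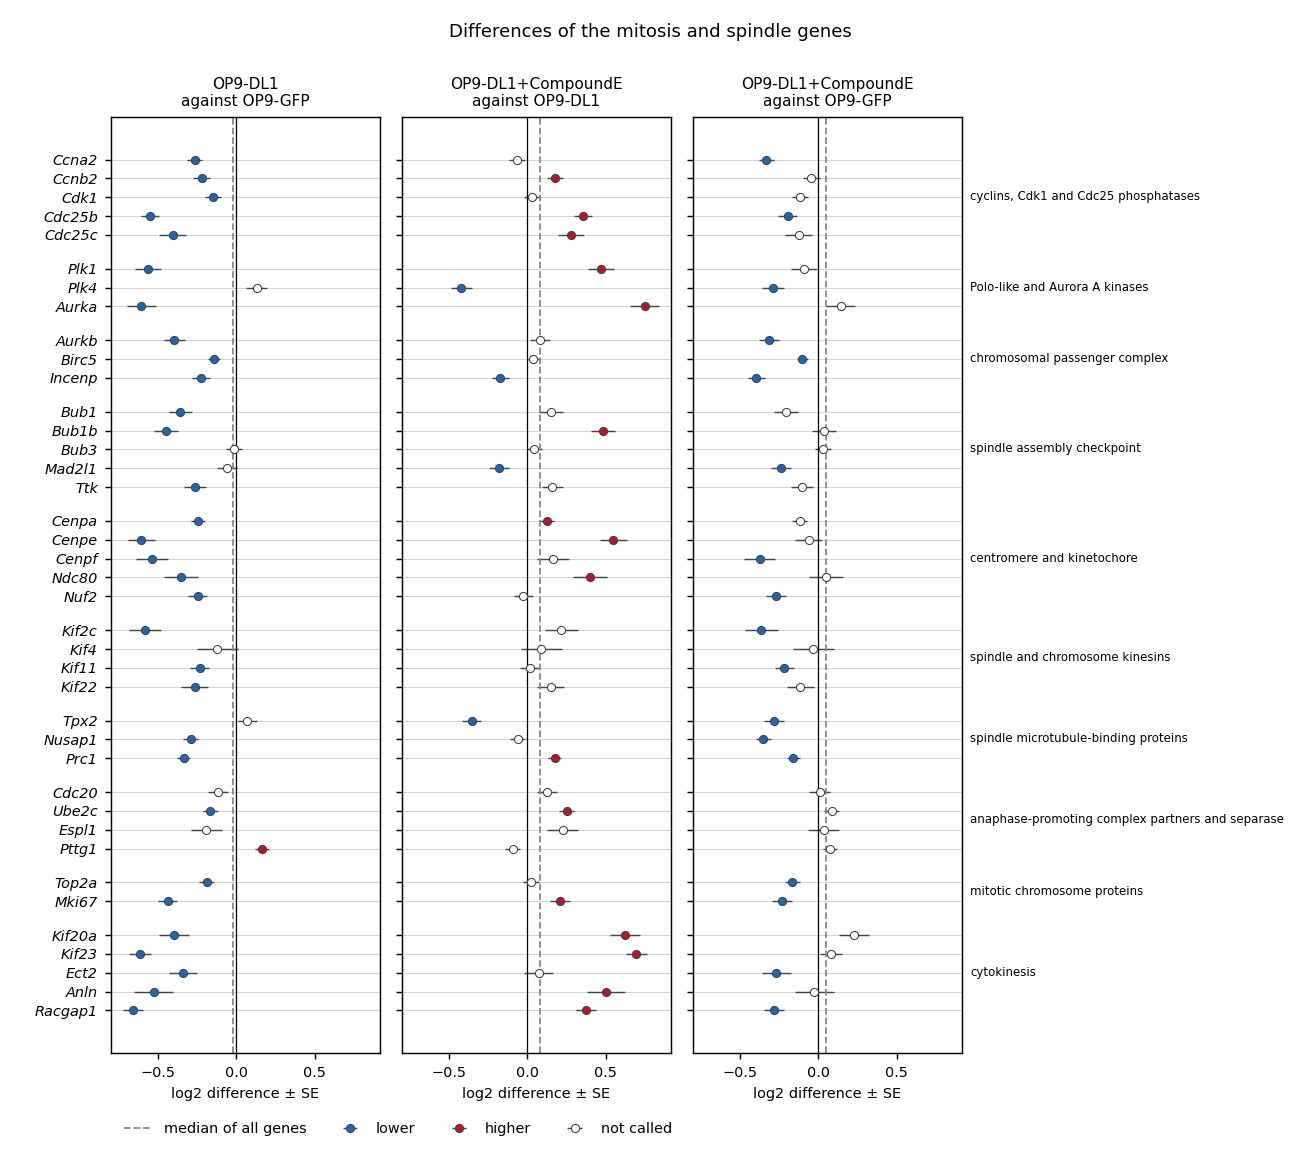
Log2 differences of the 39 genes in the 3 comparisons, with the gene on the y axis, grouped by role, and bars for the standard error of the limma model. Filled blue and red points are genes called lower and higher, open points are not called, and the dashed line is the median of all genes; 31 points are blue in the panel of OP9-DL1 against OP9-GFP.

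The genes that start mitosis were lower on OP9-DL1 than on OP9-GFP in 5 of 5 measured cases, against 16.7% of all genes. Cdc25b, a phosphatase that removes inhibitory phosphates from Cdk1, read 10.02, 9.97 and 10.07 on the OP9-DL1+CompoundE arrays, 9.73, 9.71 and 9.56 on the OP9-DL1 arrays and 10.20, 10.17 and 10.27 on the OP9-GFP arrays. No array of one group reached another group's range, with OP9-DL1 lowest and OP9-GFP highest. The OP9-DL1 level was 1.46-fold below OP9-GFP (log2 -0.55 ± 0.06 SE, adjusted p = 1.3e-06). With Compound E it was 1.28-fold above OP9-DL1 (0.35 ± 0.06, adjusted p = 0.000108) and still 0.20 below OP9-GFP (-0.20, adjusted p = 0.025), a call lost without OP9-DL1+CompoundE replicate 1 or 2 (adjusted p = 0.0603 and 0.0735) or OP9-GFP replicate 1 or 3 (adjusted p = 0.0665 and 0.0954). Its relative Cdc25c differed by -0.41 between OP9-DL1 and OP9-GFP and by 0.28 between Compound E and OP9-DL1, and the call with Compound E was lost without OP9-DL1 replicate 2 (adjusted p = 0.0839).

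Ccnb2, which encodes the B-type cyclin partner of Cdk1, was also lowest on OP9-DL1, while its Compound E and OP9-GFP arrays overlapped. It averaged 10.20 ± 0.08 with Compound E, 10.02 ± 0.02 on OP9-DL1 and 10.24 ± 0.03 on OP9-GFP (SD, n = 3 each), differences of -0.22 for OP9-DL1 against OP9-GFP (adjusted p = 0.00328) and 0.18 for Compound E against OP9-DL1 (adjusted p = 0.0109). Ccna2, the cyclin gene of S phase and G2, behaved differently: it read 10.98, 10.95 and 11.02 with Compound E, 10.96, 11.06 and 11.12 on OP9-DL1 and 11.27, 11.30 and 11.36 on OP9-GFP. Both groups on the ligand-presenting stroma lay below OP9-GFP and overlapped each other. The differences were -0.27 for OP9-DL1 (adjusted p = 0.000392) and -0.33 for Compound E (adjusted p = 0.000136), each against OP9-GFP. Cdk1 itself was lower by 0.15 on OP9-DL1 (-0.15 ± 0.05, adjusted p = 0.0341). That call was lost when any 1 of 4 arrays was left out, with adjusted p-values of 0.122 and 0.152 without OP9-DL1 replicates 2 and 1, and 0.0826 and 0.145 without OP9-GFP replicates 1 and 2.

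The kinase genes of the centrosome and spindle poles split by the probe sets used. Aurka, whose kinase matures centrosomes and builds the spindle, read 9.12, 9.16 and 8.82 with Compound E, 8.28, 8.24 and 8.35 on OP9-DL1 and 9.02, 8.89 and 8.77 on OP9-GFP. All OP9-DL1 arrays lay below every other array, while the Compound E and OP9-GFP arrays overlapped. It was 1.52-fold lower on OP9-DL1 than on OP9-GFP (-0.60 ± 0.09, adjusted p = 5.23e-05) and 1.68-fold higher with Compound E than on OP9-DL1 (0.75 ± 0.09, adjusted p = 3.57e-06), the largest difference of the 39 genes in that comparison. Between Compound E and OP9-GFP it was not called (0.14, adjusted p = 0.287), except without OP9-DL1+CompoundE replicate 3 (0.25, adjusted p = 0.0382). Its other probe set lay at background, and the mean of both gave -0.40 for OP9-DL1 against OP9-GFP.

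Plk1, the Polo-like kinase gene that acts from mitotic entry to division, read 8.49, 8.62 and 8.36 with Compound E, 7.94, 8.09 and 8.02 on OP9-DL1 and 8.66, 8.53 and 8.55 on OP9-GFP. The OP9-DL1 arrays again lay below the other 6. The differences were -0.56 ± 0.08 for OP9-DL1 against OP9-GFP (adjusted p = 3.75e-05) and 0.47 ± 0.08 for Compound E against OP9-DL1 (adjusted p = 0.000157), with -0.09 between Compound E and OP9-GFP (not called, adjusted p = 0.458). Plk4, the kinase gene of centriole duplication, went the other way by the probe set used. It read 9.23, 9.19 and 9.18 with Compound E, 9.74, 9.61 and 9.50 on OP9-DL1 and 9.42, 9.46 and 9.58 on OP9-GFP, so that Compound E arrays were the lowest and the other groups overlapped. The difference of Compound E from OP9-DL1 was -0.42 ± 0.07 (adjusted p = 8.47e-05) and from OP9-GFP -0.29 (adjusted p = 0.00577), and OP9-DL1 against OP9-GFP was not called (0.13, adjusted p = 0.182). Its other probe sets gave 0.07 and 0.15 between Compound E and OP9-DL1, neither called, and with its probe sets averaged the difference of Compound E from OP9-DL1 was -0.07 (adjusted p = 0.471). Averaging also lost the call of Compound E against OP9-GFP (-0.19, adjusted p = 0.0854). For OP9-DL1 against OP9-GFP it reversed the sign, without a call (-0.12, adjusted p = 0.259).

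The chromosomal passenger complex corrects attachments of chromosomes and directs cleavage. On OP9-DL1 and with Compound E its 3 measured genes were lower than on OP9-GFP, as were 16.7% and 10.6% of all genes. Aurkb, its kinase, read 9.34, 9.25 and 9.14 with Compound E, 9.18, 9.13 and 9.17 on OP9-DL1 and 9.52, 9.52 and 9.63 on OP9-GFP. Every OP9-GFP array lay above the other 6, which overlapped. The differences from OP9-GFP were -0.39 for OP9-DL1 (adjusted p = 0.000128) and -0.31 for Compound E (adjusted p = 0.00219), with 0.08 between Compound E and OP9-DL1 (adjusted p = 0.333). Incenp, the scaffold of the complex, read 11.47, 11.30 and 11.53 with Compound E, 11.66, 11.64 and 11.52 on OP9-DL1 and 11.81, 11.82 and 11.86 on OP9-GFP. Its difference from OP9-GFP was -0.22 on OP9-DL1 (adjusted p = 0.0055) and -0.39 with Compound E (adjusted p = 0.000106). The further fall of 0.17 with Compound E against OP9-DL1 (-0.17, adjusted p = 0.021) ended with probe sets averaged (-0.01) and with each array centred on its median (-0.04, adjusted p = 0.55). It also ended without OP9-DL1+CompoundE replicate 2 (-0.10, adjusted p = 0.106), OP9-DL1 replicate 1 (adjusted p = 0.0939) or OP9-DL1 replicate 2 (adjusted p = 0.0775). Birc5, which encodes survivin, differed from OP9-GFP by -0.14 on OP9-DL1 (adjusted p = 0.00478) and by -0.10 with Compound E (adjusted p = 0.0466), a call lost in 15 of 20 alternatives, among them leaving out any 1 array except OP9-DL1 replicate 3 (adjusted p from 0.0528 to 0.137).

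Checkpoint genes did not move as a block. Bub1b, which encodes the checkpoint protein BubR1, read 9.62, 9.90 and 9.74 with Compound E, 9.22, 9.34 and 9.26 on OP9-DL1 and 9.76, 9.81 and 9.58 on OP9-GFP. The OP9-DL1 arrays lay below the other 6, which overlapped. Its differences were -0.45 ± 0.08 for OP9-DL1 against OP9-GFP (adjusted p = 0.000204) and 0.48 ± 0.08 for Compound E against OP9-DL1 (adjusted p = 6.14e-05). Bub1, a kinase of the same pathway, was lower on OP9-DL1 than on OP9-GFP by 0.36 (-0.36, adjusted p = 0.00118), and the checkpoint kinase gene Ttk by 0.26 (-0.26, adjusted p = 0.00634). Neither was called between Compound E and OP9-DL1 (0.15 and 0.16, adjusted p = 0.111 and 0.0674), though Ttk was called without OP9-DL1 replicate 3 (adjusted p = 0.0415) and both without OP9-DL1+CompoundE replicate 3 (adjusted p = 0.0477 for Bub1 and 0.0427 for Ttk). Centring also called both higher (adjusted p = 0.00548 and 0.00199), whereas averaging probe sets reversed both (-0.06 and -0.16, adjusted p = 0.522 and 0.085). Against OP9-GFP, Compound E was not called for Bub1 or Ttk (-0.21 and -0.10, adjusted p = 0.0586 and 0.309). With probe sets averaged both were called lower there (-0.33 and -0.42, adjusted p = 0.00616 and 0.000996).

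The other two checkpoint genes showed no difference between OP9-DL1 and OP9-GFP past the threshold. Bub3, whose product carries Bub1 and BubR1 to kinetochores, read 10.54, 10.43 and 10.48 with Compound E, 10.40, 10.43 and 10.47 on OP9-DL1 and 10.47, 10.40 and 10.48 on OP9-GFP, with all groups overlapping and differences of -0.01, 0.05 and 0.03. Mad2l1, which encodes the Cdc20 inhibitor Mad2, differed by -0.06 between OP9-DL1 and OP9-GFP (adjusted p = 0.553). With Compound E it was lower than on OP9-DL1 (-0.18, adjusted p = 0.0286) and than on OP9-GFP (-0.24, adjusted p = 0.0117). The first of these calls was lost without OP9-DL1 replicate 1 or 3 (adjusted p = 0.0783 and 0.0784) or without OP9-DL1+CompoundE replicate 2 or 3 (adjusted p = 0.12 and 0.062), and the other without OP9-GFP replicate 2 (adjusted p = 0.0554). Both were lost with each array centred on its median (-0.05 and -0.15, adjusted p = 0.501 and 0.0712). The first was also lost without an intensity trend (adjusted p = 0.0686) and with only the 6 arrays compared (adjusted p = 0.0525).

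All 5 centromere and kinetochore genes were lower on OP9-DL1 than on OP9-GFP, against 16.7% of all genes. Cenpe, a kinesin that moves chromosomes to the spindle equator, read 8.73, 9.03 and 8.78 with Compound E, 8.21, 8.38 and 8.31 on OP9-DL1 and 8.97, 8.96 and 8.80 on OP9-GFP. Its OP9-DL1 arrays were the lowest, and the others overlapped. The OP9-DL1 level was 1.52-fold below OP9-GFP (-0.61 ± 0.09, adjusted p = 2.9e-05), and with Compound E it was 1.46-fold above OP9-DL1 (0.55 ± 0.09, adjusted p = 5.88e-05). Cenpf, a large kinetochore protein of G2 and mitosis, differed by -0.54 between OP9-DL1 and OP9-GFP (adjusted p = 0.000472) and was not called between Compound E and OP9-DL1 (0.16, adjusted p = 0.2). It remained below OP9-GFP with Compound E (-0.37, adjusted p = 0.0138), a call lost without OP9-DL1+CompoundE replicate 2 (adjusted p = 0.0534) or OP9-GFP replicate 2 (adjusted p = 0.0516).

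Ndc80 and Nuf2 encode partners in the complex that grips microtubules, and they parted with Compound E. Ndc80 read 7.81, 8.19 and 7.80 with Compound E, 7.49, 7.43 and 7.67 on OP9-DL1 and 7.87, 7.97 and 7.80 on OP9-GFP. Its differences were -0.35 for OP9-DL1 against OP9-GFP (adjusted p = 0.0195) and 0.40 for Compound E against OP9-DL1 (adjusted p = 0.00644), and the first was lost without OP9-DL1 replicate 1 or 2 (adjusted p = 0.0707 and 0.0881) or OP9-GFP replicate 1 or 2 (adjusted p = 0.0536 and 0.0891). Nuf2 read 9.49, 9.41 and 9.59 with Compound E, 9.49, 9.47 and 9.59 on OP9-DL1 and 9.76, 9.78 and 9.76 on OP9-GFP. Both groups on ligand-presenting stroma lay below OP9-GFP, by 0.24 on OP9-DL1 (-0.24, adjusted p = 0.00467) and 0.27 with Compound E (-0.27, adjusted p = 0.00433), and they overlapped. Cenpa, the histone variant that marks centromeres, differed by -0.25 between OP9-DL1 and OP9-GFP (adjusted p = 0.000459). With the probe sets of Cenpa averaged, that call was lost (-0.22, adjusted p = 0.0802). The Cenpa difference of 0.13 between Compound E and OP9-DL1 (adjusted p = 0.0337) was lost without any 1 of 7 arrays, all except OP9-DL1 replicate 3 and OP9-GFP replicate 3 (adjusted p from 0.0504 to 0.1). It was also lost with quantile normalization (0.11, adjusted p = 0.0651) and with probe sets averaged (-0.024, adjusted p = 0.84).

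Among spindle and chromosome kinesins, 3 of 4 were lower on OP9-DL1 than on OP9-GFP, against 16.7% of all genes. Between Compound E and OP9-DL1, 0 were called in the main test. At an unadjusted p below 0.05, 0 of 4 passed there, against 9618 of all 18193 genes. Kif2c, a kinesin that takes microtubules apart at centromeres, read 7.38, 7.33 and 7.14 with Compound E, 7.07, 7.11 and 7.03 on OP9-DL1 and 7.64, 7.81 and 7.48 on OP9-GFP. The 3 groups did not overlap, with OP9-DL1 lowest. Its differences were -0.58 ± 0.10 for OP9-DL1 against OP9-GFP (adjusted p = 0.000273), 0.22 for Compound E against OP9-DL1 (adjusted p = 0.0967) and -0.36 for Compound E against OP9-GFP (adjusted p = 0.0179). The last call was lost without OP9-DL1+CompoundE replicate 3 (adjusted p = 0.0605) or OP9-GFP replicate 1 or 2 (adjusted p = 0.0571 and 0.104). Compound E against OP9-DL1 was called without OP9-DL1+CompoundE replicate 3 (adjusted p = 0.0394). It was also called with quantile normalization (adjusted p = 0.0472) and with probe sets averaged (adjusted p = 0.041). Kif11, which pushes spindle poles apart, was lower than OP9-GFP by 0.23 on OP9-DL1 (-0.23, adjusted p = 0.00792) and by 0.22 with Compound E (-0.22, adjusted p = 0.0203). Both calls were lost without OP9-GFP replicate 1 (adjusted p = 0.0527 and 0.102), and the one with Compound E also without OP9-DL1+CompoundE replicate 2 (adjusted p = 0.0623). Kif22, a chromosome-bound kinesin, differed by -0.26 between OP9-DL1 and OP9-GFP (adjusted p = 0.025), a call lost without OP9-DL1 replicate 1 or 2 (adjusted p = 0.127 and 0.0855) or OP9-GFP replicate 1 (adjusted p = 0.116). Between Compound E and OP9-DL1, centring called Kif2c, Kif11 and Kif22 higher (adjusted p = 0.00817, 0.0482 and 0.0112). Kif22 was also called higher there without OP9-DL1+CompoundE replicate 3 (0.25, adjusted p = 0.0197). Kif4, the other chromosome-bound kinesin, read 7.81, 7.66 and 7.26 with Compound E, 7.37, 7.38 and 7.71 on OP9-DL1 and 7.71, 7.57 and 7.54 on OP9-GFP. Its groups overlapped throughout, and the differences of -0.12, 0.09 and -0.03 (each ± 0.13) were not called.

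The 3 spindle microtubule-binding proteins each had a pattern of its own. Prc1, which bundles antiparallel microtubules in the midzone, read 11.23, 11.24 and 11.20 with Compound E, 11.02, 11.07 and 11.05 on OP9-DL1 and 11.36, 11.36 and 11.43 on OP9-GFP. The 3 groups stood apart, with OP9-DL1 lowest and OP9-GFP highest. Its differences were -0.33 ± 0.04 for OP9-DL1 against OP9-GFP (adjusted p = 7.53e-06), 0.17 for Compound E against OP9-DL1 (adjusted p = 0.00259) and -0.16 for Compound E against OP9-GFP (adjusted p = 0.0116), the last lost without OP9-GFP replicate 3 (adjusted p = 0.0519). Nusap1, a protein that binds spindle microtubules near chromosomes, read 10.85, 10.74 and 10.87 with Compound E, 10.90, 10.89 and 10.85 on OP9-DL1 and 11.20, 11.15 and 11.16 on OP9-GFP. It was below OP9-GFP by 0.29 on OP9-DL1 (-0.29, adjusted p = 0.000124) and by 0.35 with Compound E (-0.35, adjusted p = 6.11e-05), with no call between these (-0.06, adjusted p = 0.319).

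Tpx2, which activates Aurora A on microtubules, read 10.29, 10.38 and 10.54 with Compound E, 10.75, 10.83 and 10.69 on OP9-DL1 and 10.69, 10.64 and 10.73 on OP9-GFP. By this probe set Compound E was lower than OP9-DL1 (-0.35, adjusted p = 0.000164) and OP9-GFP (-0.28, adjusted p = 0.00343), and OP9-DL1 did not differ from OP9-GFP past the threshold (0.07, adjusted p = 0.459). Another bright probe set of Tpx2 gave the opposite order, with 9.57, 9.68 and 9.56 with Compound E, 9.27, 9.11 and 9.40 on OP9-DL1 and 9.86, 9.88 and 9.56 on OP9-GFP. There OP9-DL1 was lower than OP9-GFP (-0.50, adjusted p = 0.000296 over all probe sets) and Compound E higher than OP9-DL1 (0.34, adjusted p = 0.00477). The direction of Tpx2 therefore depends on the probe set, and the annotation used here does not say which transcripts each one reads.

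Of the 4 genes of anaphase, 1 was lower and 1 higher on OP9-DL1 than on OP9-GFP (25.0% each). Among all genes 16.7% were lower and 15.9% higher, and among the brighter genes 28.1% and 22.1%, so these shares do not set this role apart. Ube2c, the ubiquitin-conjugating enzyme of the anaphase-promoting complex, read 10.98, 11.06 and 10.92 with Compound E, 10.71, 10.71 and 10.79 on OP9-DL1 and 10.92, 10.91 and 10.88 on OP9-GFP. OP9-DL1 was lowest, by 0.17 against OP9-GFP (-0.17, adjusted p = 0.0136), and Compound E was 0.25 above OP9-DL1 (0.25 ± 0.05, adjusted p = 0.000422). The call against OP9-GFP was lost without OP9-DL1 replicate 1 or 2 (adjusted p = 0.0623 and 0.051) or OP9-GFP replicate 1 or 2 (adjusted p = 0.06 and 0.0506). Cdc20, the activator of the complex, and Espl1, the protease separase, were not called in the 3 comparisons, with differences of -0.12 and -0.19 for OP9-DL1 against OP9-GFP, although their OP9-DL1 arrays all lay below their OP9-GFP arrays. With probe sets averaged Cdc20 was called lower on OP9-DL1 than on OP9-GFP (-0.19, adjusted p = 0.0137). Between Compound E and OP9-DL1, Cdc20 was called higher under 3 of 20 alternatives, namely centring (0.26, adjusted p = 0.00453), averaging (0.15, adjusted p = 0.0341) and leaving out OP9-DL1+CompoundE replicate 3 (0.18, adjusted p = 0.0449). Espl1 was called higher there under 5 of 19, with adjusted p from 0.00628 when centred to 0.0433 among brighter genes. Pttg1, which encodes the separase inhibitor securin, read 10.89, 10.90 and 10.90 with Compound E, 11.00, 11.03 and 10.94 on OP9-DL1 and 10.78, 10.87 and 10.81 on OP9-GFP. It was the 1 gene higher on OP9-DL1 (0.17 ± 0.05, adjusted p = 0.00863). That call was lost without OP9-GFP replicate 1 (adjusted p = 0.0568) and with its probe sets averaged (0.13, adjusted p = 0.0859), and another bright probe set gave -0.01 (adjusted p = 0.934).

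Mki67, which encodes the mitotic chromosome coat protein Ki-67, read 11.53, 11.64 and 11.43 with Compound E, 11.27, 11.29 and 11.41 on OP9-DL1 and 11.85, 11.80 and 11.64 on OP9-GFP. OP9-DL1 lay below OP9-GFP on every array, by 1.35-fold (-0.44 ± 0.06, adjusted p = 3.34e-05). Compound E was higher than OP9-DL1 (0.21, adjusted p = 0.0131), a call lost without OP9-DL1+CompoundE replicate 2 (adjusted p = 0.0684) or OP9-DL1 replicate 1 (adjusted p = 0.0663), and lower than OP9-GFP (-0.23, adjusted p = 0.0143), a call lost without OP9-DL1+CompoundE replicate 3 (adjusted p = 0.0624) or OP9-GFP replicate 1 or 2 (adjusted p = 0.0837 and 0.06). Top2a, the topoisomerase that untangles sister chromosomes, was lower than OP9-GFP by 0.19 on OP9-DL1 (-0.19, adjusted p = 0.00683) and by 0.17 with Compound E (-0.17, adjusted p = 0.0236), with 0.02 between them. Both calls were lost with probe sets averaged (-0.08 and -0.16, adjusted p = 0.46 and 0.097) and without OP9-GFP replicate 1 (adjusted p = 0.0516 and 0.123), and the one with Compound E also without OP9-DL1+CompoundE replicate 1 or 3 (adjusted p = 0.066 and 0.0676).

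All 5 cytokinesis genes were lower on OP9-DL1 than on OP9-GFP, with a median of -0.53, against 16.7% of all genes. With Compound E 4 of 5 were higher than on OP9-DL1, with a median of 0.50, against 25.1% of all genes. Racgap1 and Kif23 encode the partners of centralspindlin, which organises the midzone and the cleavage plane. Racgap1 read 9.18, 9.26 and 9.26 with Compound E, 8.82, 8.93 and 8.82 on OP9-DL1 and 9.44, 9.58 and 9.53 on OP9-GFP. The 3 groups stood apart, and the OP9-DL1 level was 1.58-fold below OP9-GFP (-0.66 ± 0.06, adjusted p = 3.43e-07), the largest fall of the 39 genes. Compound E was above OP9-DL1 (0.38 ± 0.06, adjusted p = 0.000118) and below OP9-GFP (-0.28, adjusted p = 0.00399).

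Kif23 read 9.87, 10.02 and 9.76 with Compound E, 9.14, 9.20 and 9.24 on OP9-DL1 and 9.82, 9.85 and 9.74 on OP9-GFP. Its OP9-DL1 arrays stood far below the other 6, which overlapped. It was 1.53-fold lower on OP9-DL1 than on OP9-GFP (-0.61 ± 0.07, adjusted p = 1.61e-06) and 1.62-fold higher with Compound E than on OP9-DL1 (0.69 ± 0.07, adjusted p = 2.55e-07), with 0.08 between Compound E and OP9-GFP (adjusted p = 0.426). Kif20a, the kinesin that brings the passenger complex to the midzone, read 9.36, 9.56 and 9.11 with Compound E, 8.74, 8.64 and 8.78 on OP9-DL1 and 9.09, 9.23 and 9.02 on OP9-GFP. Its differences were -0.40 ± 0.10 for OP9-DL1 against OP9-GFP (adjusted p = 0.0037) and 0.62 ± 0.10 for Compound E against OP9-DL1 (adjusted p = 4.31e-05), and Compound E was called above OP9-GFP only without OP9-DL1+CompoundE replicate 3 among the arrays left out (0.35, adjusted p = 0.00812).

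Anln, which encodes the ring scaffold anillin, read 7.20, 7.05 and 6.82 with Compound E, 6.61, 6.67 and 6.30 on OP9-DL1 and 7.06, 7.12 and 6.98 on OP9-GFP. OP9-DL1 was again lowest, and the differences were -0.53 ± 0.12 against OP9-GFP (adjusted p = 0.003) and 0.50 ± 0.12 for Compound E against OP9-DL1 (adjusted p = 0.00318). With its probe sets averaged the difference between Compound E and OP9-DL1 was 0.19 (adjusted p = 0.113). Ect2, the exchange factor that activates RhoA at the cleavage site, read 10.15, 9.88 and 10.18 with Compound E, 10.03, 10.10 and 9.87 on OP9-DL1 and 10.20, 10.26 and 10.55 on OP9-GFP. It was lower on OP9-DL1 than on OP9-GFP (-0.34, adjusted p = 0.00863), a call lost without OP9-DL1 replicate 3 (adjusted p = 0.0552) or OP9-GFP replicate 3 (adjusted p = 0.051), and was not called between Compound E and OP9-DL1 (0.07, adjusted p = 0.546). The call of Compound E below OP9-GFP (-0.27, adjusted p = 0.048) was lost in 12 of 20 alternatives, among them leaving out replicate 1 or 2 of OP9-DL1+CompoundE or OP9-DL1, or replicate 2 or 3 of OP9-GFP (adjusted p from 0.0572 to 0.224).

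**Figure D3:**
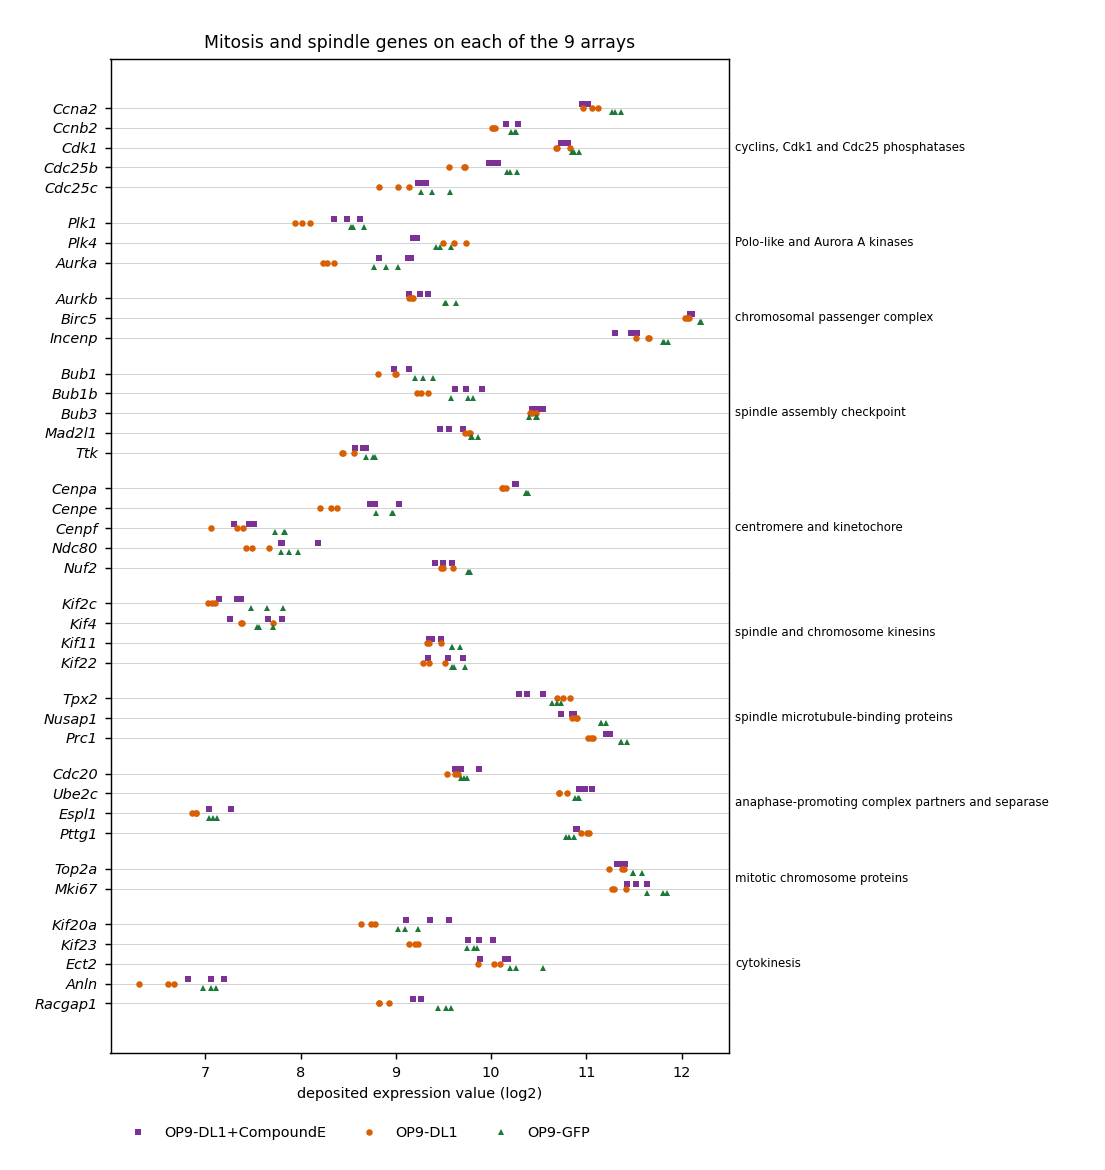
Deposited log2 value of each of the 39 genes on each of the 9 arrays, with genes on the y axis grouped by role and 1 point per array, coloured by group. The points of OP9-DL1 lie to the left of the points of OP9-GFP without overlap for 34 genes.

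The 39 genes fell into several patterns of calls. For 12 genes (Anln, Aurka, Bub1b, Ccnb2, Cdc25c, Cenpa, Cenpe, Kif20a, Kif23, Ndc80, Plk1 and Ube2c), OP9-DL1 was lower than OP9-GFP, Compound E was higher than OP9-DL1, and Compound E against OP9-GFP was not called. For 10 genes (Aurkb, Birc5, Ccna2, Cenpf, Ect2, Kif11, Kif2c, Nuf2, Nusap1 and Top2a), both groups on ligand-presenting stroma were lower than OP9-GFP and Compound E was not called against OP9-DL1. Racgap1, Cdc25b, Prc1 and Mki67 stood between these, called lower on OP9-DL1 than on OP9-GFP, higher with Compound E than on OP9-DL1, and lower with Compound E than on OP9-GFP. The sets depend on the processing. With each array centred, 6 of the 10 (Aurkb, Birc5, Cenpf, Kif11, Kif2c and Top2a) were called higher with Compound E than on OP9-DL1 (adjusted p from 0.000744 for Birc5 to 0.0482 for Kif11), and Birc5, Ect2, Kif11, Kif2c and Top2a lost the call against OP9-GFP. Centring also ended the calls of Compound E against OP9-GFP for Cdc25b (-0.10, adjusted p = 0.2), Prc1 (-0.07, adjusted p = 0.25) and Mki67 (-0.14, adjusted p = 0.101), and averaging probe sets ended that of Racgap1 (-0.16, adjusted p = 0.121). Of the 12, Ube2c and Kif20a were called higher with Compound E than on OP9-GFP when centred (adjusted p = 0.013 and 0.0189). With probe sets averaged, Cenpa lost both of its calls (adjusted p = 0.0802 and 0.84) and Anln that of Compound E against OP9-DL1 (adjusted p = 0.113). Averaging also made Cenpe lower with Compound E than on OP9-GFP (-0.26, adjusted p = 0.0147). These sets were read off the calls, share arrays between comparisons, and were not tested against each other.

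Other probe sets for the same genes gave a further measurement from the same arrays. Of the 39 genes, 25 had more than 1 probe set, with 46 others in all. Of these 46, 19 were lower on OP9-DL1 than on OP9-GFP and 0 higher by limma over all probe sets (median -0.23), against 14.6% of all probe sets lower and 13.6% higher. Among the 27 with a mean of at least 6, from 21 genes, 18 were lower and 0 higher (median -0.33), against 25.6% and 20.1% of probe sets of that brightness. Between Compound E and OP9-DL1, 14 of the 46 were higher and 4 lower, against 22.0% and 20.3% of all probe sets, and 11 of the 27 were higher and 2 lower, against 32.6% and 31.4%. Kif23 had a probe set with -0.76 and 0.82 for these comparisons, and Racgap1 one with -0.79 and 0.56, each larger than by the probe set used. Cenpe had one with -0.51 and 0.05, so its higher level with Compound E rests on 1 probe set. One other probe set of Ttk gave -0.47 and one of Incenp gave -0.58 between Compound E and OP9-DL1. The probe set used for 4 of the 39 genes carries the suffix x and that for 6 the suffix s, designs that may also bind related transcripts.

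**Figure D4:**
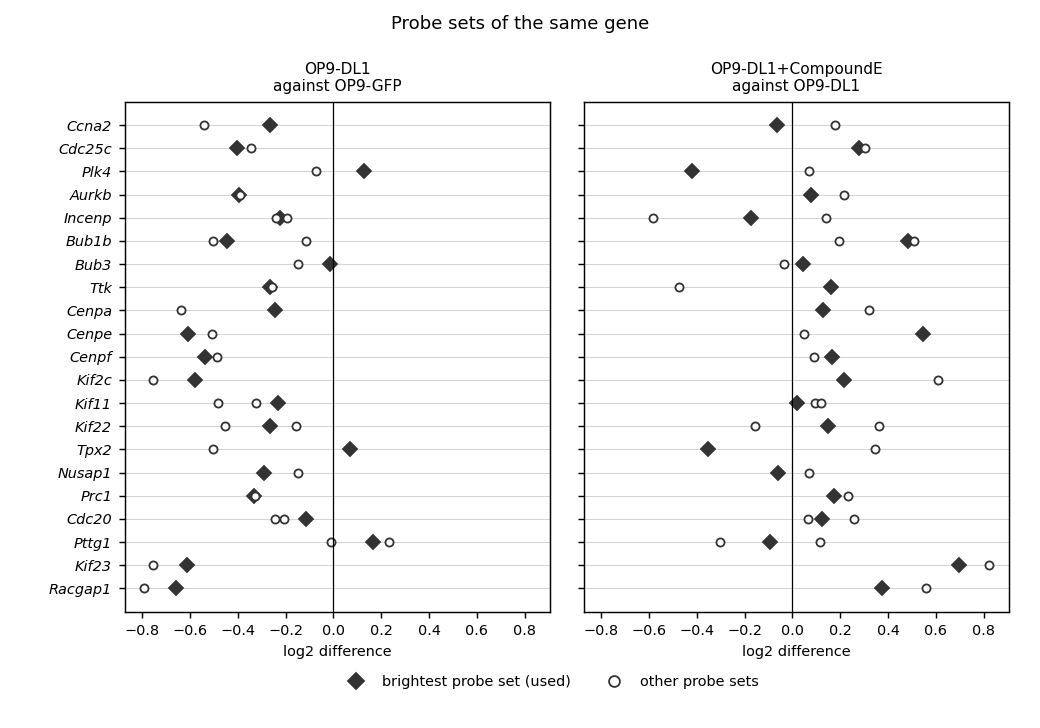
Log2 differences of all probe sets with a mean of at least 6 for the 21 genes that have more than 1 such probe set, with OP9-DL1 against OP9-GFP in the left panel and OP9-DL1+CompoundE against OP9-DL1 in the right one. Diamonds are the probe sets used and open circles the others; the pair for Tpx2 lies on opposite sides of 0 in both panels.

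On OP9-DL1 against OP9-GFP, other lists of mitotic genes held smaller shares of lower genes than the 39. In that comparison, where 16.7% of all genes were lower and 15.9% higher, 10 of 28 other kinetochore and centromere genes were lower and 4 higher, and 8 of 22 other mitotic kinesin and spindle genes were lower and 3 higher. Condensin and cohesin had 6 of 20 lower and 1 higher, the anaphase-promoting complex 7 of 17 and 1, G2/M kinases and their regulators 6 of 19 and 4, and centrosome and cytokinesis genes 3 of 14 and 0. Their medians ran from -0.19 for kinesin and spindle genes to 0.07 for G2/M kinases and regulators, against -0.27 for the 39 genes. DNA replication genes, which mark S phase, had 5 of 41 lower and 8 higher, with a median of 0.02. Between Compound E and OP9-DL1, 21.6% of all genes were lower and 25.1% higher. The anaphase-promoting complex had 2 of 17 lower and 6 higher, and the other kinesin and spindle genes 4 of 22 lower and 6 higher. More genes were lower than higher among replication genes (19 of 41 lower and 2 higher), kinetochore genes (12 of 28 and 3), condensin and cohesin (10 of 20 and 3), G2/M kinases and regulators (8 of 19 and 5) and centrosome and cytokinesis genes (5 of 14 and 3), whereas the 39 genes had 4 lower and 16 higher. Against OP9-GFP, where 10.6% of all genes were lower and 12.1% higher, Compound E had 16 of 41 replication genes, 15 of 28 kinetochore genes, 8 of 20 condensin and cohesin genes and 3 of 17 genes of the anaphase-promoting complex lower by limma, with 0 higher in these lists. At an unadjusted p below 0.05, 24 replication, 17 kinetochore, 11 condensin and cohesin and 5 anaphase-promoting complex genes passed. Of all 18193 genes, 6312 passed at that level. The other kinesin and spindle genes had 7 of 22 lower and 1 higher, G2/M kinases 6 of 19 and 1, and centrosome and cytokinesis genes 4 of 14 and 1.

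**Figure D5:**
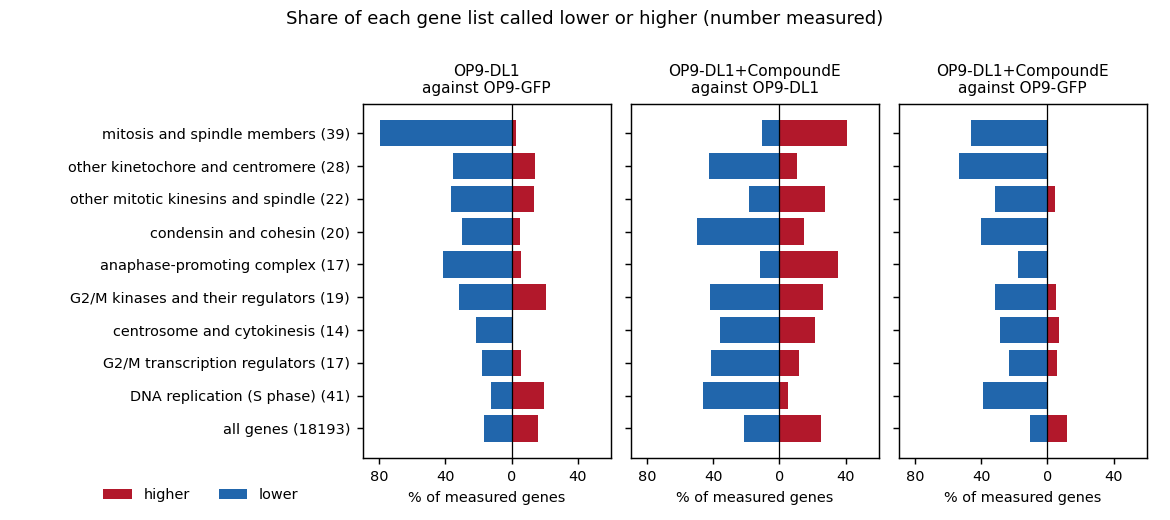
Share of the measured genes of each list called lower (blue, left of 0) or higher (red, right of 0) by limma in the 3 comparisons, in percent, with the number measured in brackets and all 18193 genes at the bottom. In the panel of OP9-DL1 against OP9-GFP the 39 mitosis and spindle genes reach 79.5% lower, against 16.7% of all genes.

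Individual members of these lists went either way. Kifc1, a minus-end kinesin of the spindle, read 8.83, 8.92 and 8.62 with Compound E, 8.31, 8.40 and 8.36 on OP9-DL1 and 8.93, 8.97 and 8.69 on OP9-GFP, differences of -0.51 for OP9-DL1 against OP9-GFP and 0.43 for Compound E against OP9-DL1. The cyclin F gene Ccnf (-0.59 and 0.81), the condensin gene Ncaph (-0.45 and 0.35), the augmin gene Haus8 (-0.45 and 0.74) and the ubiquitin ligase subunit gene Anapc11 (-0.43 and 0.37) were called in the same directions. Ckap2l, a spindle protein gene, did the opposite, with 9.99, 9.81 and 9.94 with Compound E, 11.11, 11.00 and 11.19 on OP9-DL1 and 10.32, 10.25 and 10.35 on OP9-GFP (differences 0.79 and -1.19, adjusted p = 2.21e-08 and 1.02e-10). Wee1, the kinase that holds Cdk1 inactive (0.35 and -0.79), the checkpoint kinase gene Chek1 (0.32 and -0.66), the Plk1 activator gene Bora (0.30 and -0.89), the cohesin regulator gene Pds5b (0.40 and -0.88) and the growth arrest gene Gadd45a (0.98 and -0.62) were also higher on OP9-DL1 than on OP9-GFP and lower with Compound E than on OP9-DL1.

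Among 17 transcription regulators of G2 and mitosis, 3 were lower (17.6%, against 16.7% of all genes) and 1 higher (5.88%, against 15.9%) on OP9-DL1 than on OP9-GFP. Between Compound E and OP9-DL1, 7 were lower (41.2%, against 21.6% of all genes) and 2, Foxm1 and E2f2, higher (11.8%, against 25.1%). Between Compound E and OP9-GFP, 4 were lower (23.5%, against 10.6%) and 1 higher (5.88%, against 12.1%). Foxm1, which encodes an activator of many of these 39 genes, read 7.67, 7.96 and 7.48 with Compound E, 6.85, 6.94 and 6.77 on OP9-DL1 and 7.88, 7.59 and 7.57 on OP9-GFP. The OP9-DL1 arrays lay below the other 6, by -0.83 ± 0.12 against OP9-GFP (adjusted p = 4.71e-05), and Compound E was 0.85 ± 0.12 above OP9-DL1 (adjusted p = 2.4e-05), with 0.02 between Compound E and OP9-GFP. E2f2, an E2F factor, had 9.85, 9.79 and 9.75 with Compound E, 7.75, 7.77 and 7.73 on OP9-DL1 and 9.40, 9.35 and 9.39 on OP9-GFP, differences of -1.63 and 2.05 for the same comparisons (adjusted p = 3.31e-12 and 1.23e-13). E2f1 was lower on OP9-DL1 than on OP9-GFP by 0.19 (-0.19, adjusted p = 0.0447), and Nfyb, a subunit of the CCAAT-binding factor NF-Y, was higher by 0.30 there and lower by 0.34 with Compound E against OP9-DL1 (0.30 and -0.34).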

How the data were processed

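RNA of 9 samples was amplified and hybridised to single-colour oligonucleotide arrays. The deposited values are log2 expression per probe set, already normalised between arrays by the authors; MAS5 and GCRMA 2.4.1 are named, per the submitters' processing notes, without role or order, and the background step behind the values is not stated in the labels or files. Probe sets numbered 45101, of which 34945 had 1 gene symbol in the platform annotation, 932 several and 9160 none, and 34741 symbols were updated through RefSeq gene tables. Each gene took its brightest probe set. Differences were tested with limma 3.58.1 in R 4.3.3 (lmFit and eBayes with an intensity trend, all 9 arrays, two-sided, Benjamini-Hochberg over 18193 genes, threshold 0.05), and the code was tested on simulated data. The number of arrays limits the precision. Exactly equal values on arrays of 1 group occurred in 3976 genes, 3 of the 39 among them. Promoters came from RefSeq GRCm38.p6. All listed genes could be named, with up to 4 genes of each other list ranked on p in OP9-DL1 against OP9-GFP and again in OP9-DL1+CompoundE against OP9-DL1. The genes, lists and tests were chosen with earlier results of these data known. Alternatives covered scaling, probe sets, filters, variance model, arrays in the fit, pairing and fold threshold. Deviations from the group means correlated from -0.16 to 0.16 between arrays with the same replicate number. Between arrays of different numbers they correlated from -0.20 to 0.13. With 3 arrays per group this cannot exclude that the numbers pair the arrays, and the labels do not say.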

Additional observations from a re-analysis of the deposited data

How the results depend on the processing

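Of the calls on OP9-DL1 against OP9-GFP, 21 of 32 held in all 20 alternatives, against 12 of 20 for Compound E against OP9-DL1 and 5 of 18 for Compound E against OP9-GFP. The 20 do not include the 1.5-fold threshold, whose smaller counts are given below. The alternatives of leaving out genes with equal values in a group and of testing all probe sets were chosen after seeing the data. With 9 arrays, differences near 0.2 lie close to the threshold, and no alternative addresses cross-hybridisation or the makeup of the cultures.

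Leaving out 1 array gave, for OP9-DL1 against OP9-GFP, 0 to 1 higher and 25 to 31 lower genes, medians from -0.29 to -0.25, and 5074 to 6268 calls over all genes. For Compound E against OP9-DL1 it gave 14 to 20 higher and 2 to 4 lower, medians of 0.13 to 0.19 and 7372 to 8460 calls. For Compound E against OP9-GFP it gave 0 to 2 higher and 12 to 19 lower, medians from -0.16 to -0.11 and 3059 to 4415 calls. With the replicate number as a block, the higher and lower counts were 1 and 30, 15 and 4, and 0 and 17 in the same order. Calls over all genes were then 5755, 8295 and 3972. Whether the numbers pair the arrays is not known.

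Centring gave a median of -0.31 for OP9-DL1 against OP9-GFP, 29 higher and 2 lower with a median of 0.28 for Compound E against OP9-DL1, and 3 higher and 9 lower with a median of -0.027 for Compound E against OP9-GFP. Averaging probe sets gave 0 higher for OP9-DL1 against OP9-GFP, 1 lower for Compound E against OP9-DL1 and a median of -0.16 for Compound E against OP9-GFP. Without an intensity trend the counts for OP9-DL1 against OP9-GFP were 0 higher and 25 lower. The lower calls lost were those of Cdk1, Birc5, Incenp, Kif22, Ube2c and Top2a (adjusted p from 0.052 to 0.123). The same setting gave 2 lower for Compound E against OP9-DL1 and 11 lower for Compound E against OP9-GFP. At 1.5-fold the counts were 0 higher and 4 lower (2524 of all genes), 3 higher and 0 lower (3534), and 0 lower (923).

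Directions that reversed for OP9-DL1 against OP9-GFP were Plk4 (-0.12) and Tpx2 (-0.13) with probe sets averaged. For Compound E against OP9-DL1, centring reversed Ccna2 (0.067), Nuf2 (0.11), Nusap1 (0.073) and Pttg1 (0.038), averaging reversed Ccna2 (0.055), Bub1 (-0.060), Bub3 (-0.0057), Ttk (-0.16), Cenpa (-0.024), Tpx2 (0.22), Nusap1 (0.0050) and Top2a (-0.088), and quantile normalization reversed Kif11 (-0.012). For Compound E against OP9-GFP, centring reversed Ccnb2 (0.049), Cenpe (0.032), Kif4 (0.060) and Anln (0.067), averaging reversed Bub3 (-0.11), Tpx2 (0.088) and Cdc20 (-0.041), and quantile normalization reversed Cdc20 (-0.0012) and Anln (0.025). Leaving out 1 array carried Bub3 across 0 for OP9-DL1 against OP9-GFP (-0.042 to 0.0019). For Compound E against OP9-DL1 it did so for Nuf2 (-0.073 to 0.020), Kif4 (-0.029 to 0.25), Kif11 (-0.020 to 0.064) and Top2a (-0.024 to 0.052), and for Compound E against OP9-GFP for Bub1b (-0.036 to 0.10), Ndc80 (-0.080 to 0.12), Kif4 (-0.15 to 0.13), Cdc20 (-0.063 to 0.060), Espl1 (-0.044 to 0.073) and Anln (-0.11 to 0.076). The cause was not tested.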
